A study of Mus musculus with 27 samples.

Results

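The kinetochore and spindle genes are 45 genes whose products attach chromosomes to microtubules, build and steer the mitotic spindle and finish cell division. They were listed by name, with earlier results of these data known. Each is the row of the deposited expression table that carries the member's symbol and no other. For Ska2 and Knstrn, which have 2 such rows, it is the row with the higher mean. All 45 were measured, out of 22180 named genes. They fall into 8 groups by role: the Ndc80 and Mis12 complexes, the Ska complex, centromeric chromatin and inner kinetochore, the corona, the spindle checkpoint, the chromosomal passenger complex, spindle assembly with its kinases, and kinesins with the midzone.

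The tumours were 27 snap-frozen prostate tumours from transgene-positive F2 males, 1 array per tumour, of a cross between C57BL/6-Tg(TRAMP)8247Ng/J and PWK/PhJ mice. The F2 males came from transgene-negative sires and transgene-positive dams, and tumours were scored at 30 weeks or earlier when a humane endpoint came first, without the age of each animal. In TRAMP mice the SV40 early region is driven by the probasin promoter, which is active in prostate epithelium, so all 27 tumours carry the same oncogene. The labels give 1 group and no contrast, so the members are described across tumours, named by animal number, and set along measures that contain no member. P425, the tumour with the lowest cell-cycle expression, was singled out for that reason, and each result is given for all 27 tumours and for the 26 without it.

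During mitosis each chromosome is held at its centromere, where nucleosomes with the histone variant CENP-A carry the inner kinetochore, a set of CENP proteins that stays on the centromere through the cell cycle. The Ndc80 complex, linked to it through the Mis12 complex, grips the microtubule ends, and the Ska complex stabilises that grip. Unattached kinetochores recruit the checkpoint proteins, which hold back Cdc20 and so delay anaphase, while Aurora kinase B in the passenger complex releases wrong attachments and kinesins move chromosomes and slide microtubules. Most of these genes are transcribed late in the cell cycle, in G2 and mitosis, and their promoters often carry the cell cycle genes homology region, a TTTGAA or TTCGAA element bound by the DREAM and MuvB complexes, near CCAAT boxes bound by NF-Y. SV40 large T antigen binds the Rb family and p53 and so acts on the same control.

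RefSeq promoter windows of the build GRCm38.p6, from 250 bases before to 50 bases after a start site, were matched to 38 of the 45 members in 42 windows. The letters TTTGAA or TTCGAA were searched on both strands, as were the letters CCAAT, and matches were counted also where they overlapped. A TTTGAA or TTCGAA match was in 26 of 42 member windows (61.9%), against 19.2% of all 32851 windows in the table, and within 50 bases of the start in 22 (52.4%), against 5.31%. CCAAT was in 31 (73.8%), against 37.4%, and at 2 or more places in 45.2%, against 11.7%. Both kinds of match were in 23 windows (54.8%), against 7.53% of all windows. A match describes letters and not a bound site. The 4 windows below show members that behaved differently across the tumours. Bub1 and Kif4 rose along the proliferation marker Mki67 with and without P425, Ccnb2 did so with P425 and not without it, and Zwint in neither fit. Capitals mark the matches, and positions count from the start site, negative before it.
Bub1: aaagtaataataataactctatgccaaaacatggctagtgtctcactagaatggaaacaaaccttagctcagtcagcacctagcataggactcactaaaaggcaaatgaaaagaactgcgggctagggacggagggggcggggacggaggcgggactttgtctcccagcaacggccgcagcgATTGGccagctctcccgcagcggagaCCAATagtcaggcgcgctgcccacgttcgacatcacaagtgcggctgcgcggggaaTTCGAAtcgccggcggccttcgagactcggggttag
Kif4: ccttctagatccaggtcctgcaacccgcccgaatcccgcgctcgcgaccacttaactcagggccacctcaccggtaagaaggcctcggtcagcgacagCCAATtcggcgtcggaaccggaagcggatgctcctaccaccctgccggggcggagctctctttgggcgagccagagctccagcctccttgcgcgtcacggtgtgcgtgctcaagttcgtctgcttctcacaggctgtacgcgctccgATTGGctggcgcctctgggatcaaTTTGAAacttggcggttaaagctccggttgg
Ccnb2: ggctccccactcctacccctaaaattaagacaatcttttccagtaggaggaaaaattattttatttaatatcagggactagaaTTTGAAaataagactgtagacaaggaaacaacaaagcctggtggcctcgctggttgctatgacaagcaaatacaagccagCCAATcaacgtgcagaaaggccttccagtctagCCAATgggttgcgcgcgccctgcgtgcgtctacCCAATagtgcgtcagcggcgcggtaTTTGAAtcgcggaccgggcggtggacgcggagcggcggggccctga
Zwint: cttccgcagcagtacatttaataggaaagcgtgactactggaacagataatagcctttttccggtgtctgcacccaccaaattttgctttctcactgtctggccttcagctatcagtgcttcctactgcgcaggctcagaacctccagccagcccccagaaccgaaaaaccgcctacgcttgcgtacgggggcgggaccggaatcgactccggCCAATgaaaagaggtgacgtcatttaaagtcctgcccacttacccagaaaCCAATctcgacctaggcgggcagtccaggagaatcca
The Bub1 window (chr2:127831810-127832109, minus strand) holds TTCGAA at 15 after the start and CCAAT at -68 and -42. The Kif4 window (chrX:100625815-100626114, plus strand) holds TTTGAA at 20 after the start and CCAAT at -152 and -5. Ccnb2 (chr9:70421505-70421804, minus strand) has the fullest set of the 4, with TTTGAA at -167 and at 5 after the start and CCAAT at -87, -54 and -21. Zwint (chr10:72654596-72654895, plus strand) holds no TTTGAA or TTCGAA, and CCAAT at -37 and at 14 after the start. Of the members with a window, 16 of the 26 that rose along Mki67 without P425 held TTTGAA or TTCGAA, and so did 8 of the 12 that did not pass.

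All 45 members had a mean above the median of all rows (5.79 log2), and 40 were above it in every tumour. The array medians lay between 5.67 and 5.82, and correlations between arrays between 0.891 and 0.986. Levels of different genes come from different probes and are not compared here. The median SD of the members was 0.52 log2 over 27 tumours, against 0.30 over all genes and 0.37 over genes with a mean above the median row. Over the 26 tumours without P425 it was 0.39, against 0.29 and 0.35. Of the 45 members, 39 had an SD above the median of genes above the median row over 27 tumours and 27 over 26.

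Several marker lists moved against the members, each scored as the mean over its genes of the log2 value minus the gene's mean. The r of a score with the mean of the 45 members was -0.69 for adipose tissue, -0.68 for prostate secretory genes, -0.62 for smooth muscle, -0.53 for basal epithelium and -0.31 for endothelium over 27 tumours, and -0.20, -0.18, -0.37, -0.66 and -0.54 in that order over the 26 without P425. For neuroendocrine genes it was 0.51 over 27 tumours and 0.33 over 26. The luminal epithelium score, over 11 genes, has no pooled r because it fell into separate clusters, 8 tumours at 1.64 to 2.45 and 19 at -1.45 to 0.54. The 8 tumours were P425 (2.45), P1276 (2.44), P966 (2.27), P471 (1.87), P219 (1.86), P1469 (1.73), P569 (1.72) and P803 (1.64). The mean over the 45 centred members was -1.86 in P425, -0.45 in P1276, -0.41 in P803, -0.37 in P219, -0.33 in P1469, -0.33 in P966 and -0.09 in P569. These 7 lowest member means were thus all in tumours of high luminal score, and the eighth such tumour, P471, was at 0.05. The 19 others lay between -0.02 and 0.46 (P500). Luminal genes summed to 111.5 log2 in P425, and to 68.6 to 111.4 in the other 26, with Cdh3 as the list's gene whose mean was below the median row. P425 also had the highest prostate secretory score (4.16, others -0.94 to 2.53) and the highest adipose score (2.93, others -0.72 to 1.34), although the secretory genes Pbsn, Msmb and Spink1 had means below the median row. Its smooth muscle score was 1.97 (others -0.88 to 2.20) and its neuroendocrine score -1.86 (others -2.72 to 0.96). Which cells express these markers is not known here, and their part in the members' levels was not tested beyond the fits with these scores given below. In bulk tumours fewer dividing cells and less mitotic RNA per cell cannot be told apart.

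**Figure D1:**
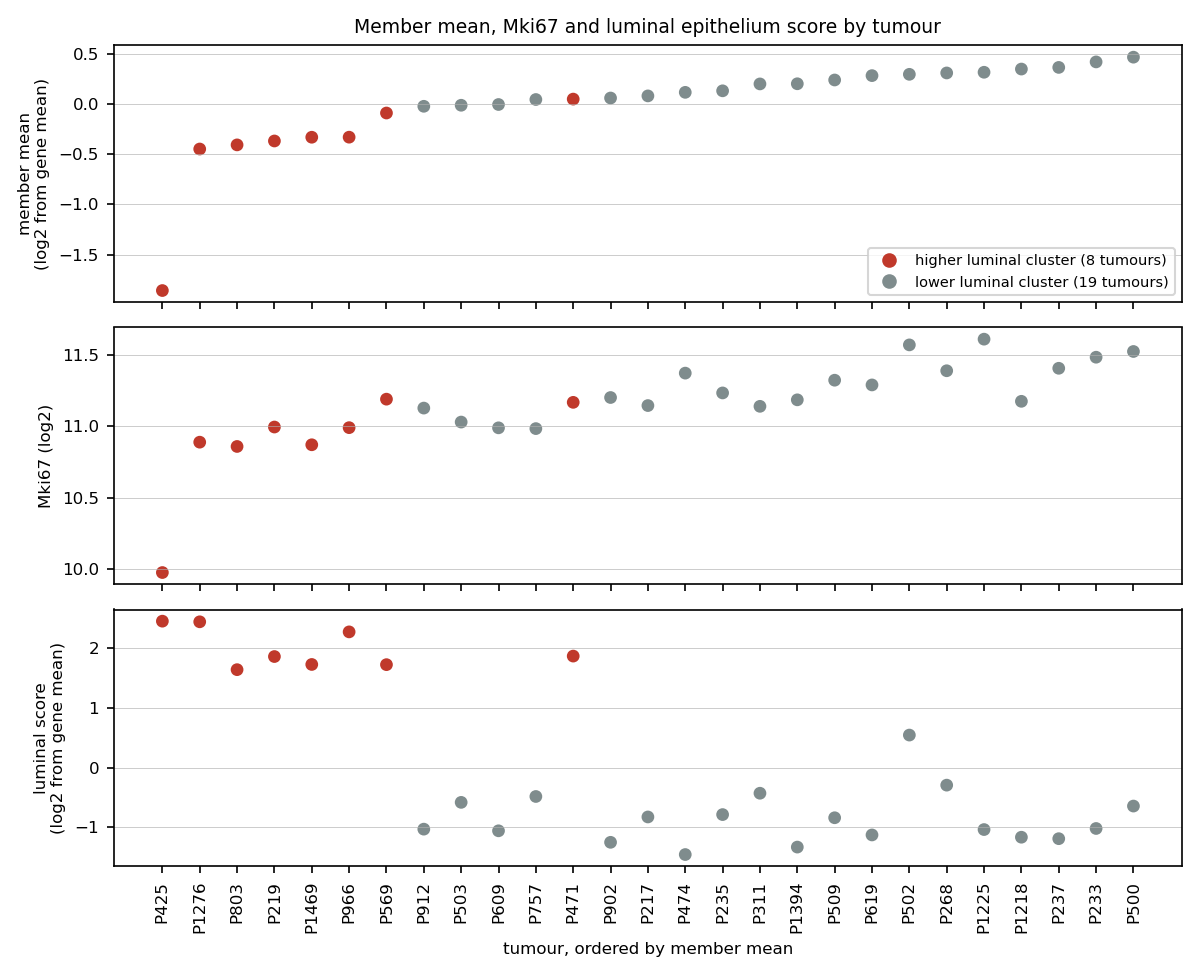
Mean of the 45 centred members (top, log2), Mki67 (middle, log2) and the luminal epithelium score (bottom, log2) in each of the 27 tumours, ordered by the member mean, with tumours of the higher luminal cluster in red. P425 is lowest in the upper panels and highest in the lower one, and the 7 lowest member means are in red.

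P425 was the lowest tumour for 43 of the 45 members (95.6%), against 11.51% of all genes. The exceptions were Cenpm, at 8.18 in P425 and lowest in P471 (7.92), and Ccnb2, at 9.60 in P425 and lowest in P1394 (9.37). P425 minus the mean of the other 26 had a median of -2.01 log2 over the members and ran from -3.32 (Kif18a, 9.99-fold) to -0.62 (Cenpm, 1.54-fold), against a median of 0.02 over all genes. P425 was chosen for low cell-cycle expression, so these differences are a description. Among the other 26 tumours the lowest value was in P1276 for 13 members, in P803 for 11 and in P219 for 7. The highest of all 27 was in P500 for 9 members, in P233 and P509 for 7 each and in P1218 for 6.

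The order of the role groups differed among the low tumours, as a description. In P1276 the group means ran from -0.90 for the Ndc80 and Mis12 complexes and -0.72 for the Ska complex to -0.23 for spindle assembly and kinases and -0.12 for the passenger complex. In P803 the passenger complex was lowest of the 8 groups (-0.61) and spindle assembly highest (-0.16). In P569 the passenger complex was at 0.32 while the Ndc80 and Mis12 complexes were at -0.34. In P425 all 8 lay between -2.17 (kinesins and midzone) and -1.57 (corona).

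Members were next set along Mki67, whose product Ki-67 coats mitotic chromosomes and marks dividing cells. Mki67 was at 9.98 log2 in P425 and at 10.86 (P803) to 11.61 (P1225) in the other 26, with a median of 11.17. Each gene was fitted on Mki67 scaled to SD 1, which is 0.316 log2 over 27 tumours and 0.215 over 26, so slopes of the 2 fits are per different steps. Over 27 tumours 41 of 45 members rose along Mki67 (limma, adjusted p under 0.05), against 12.0% of all genes. Without P425 29 of 45 rose, against 6.24% of all genes. With the test limited to genes above the median row, where all members lie, 41 rose over 27 tumours, against 21.1% of those genes, and 32 over 26, against 11.9%. The median slope was 0.44 log2 per SD for the members and -0.03 for all genes over 27 tumours, and 0.23 and -0.03 over 26. No member fell in either fit. Within the 19 tumours of lower luminal score 11 of 45 rose, against 1.59% of all genes: Ndc80, Spc25, Cenpi, Cenpe, Bub1, Mad2l1, Incenp, Kif4, Kif11, Kif18a and Kif23.

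**Figure D2:**
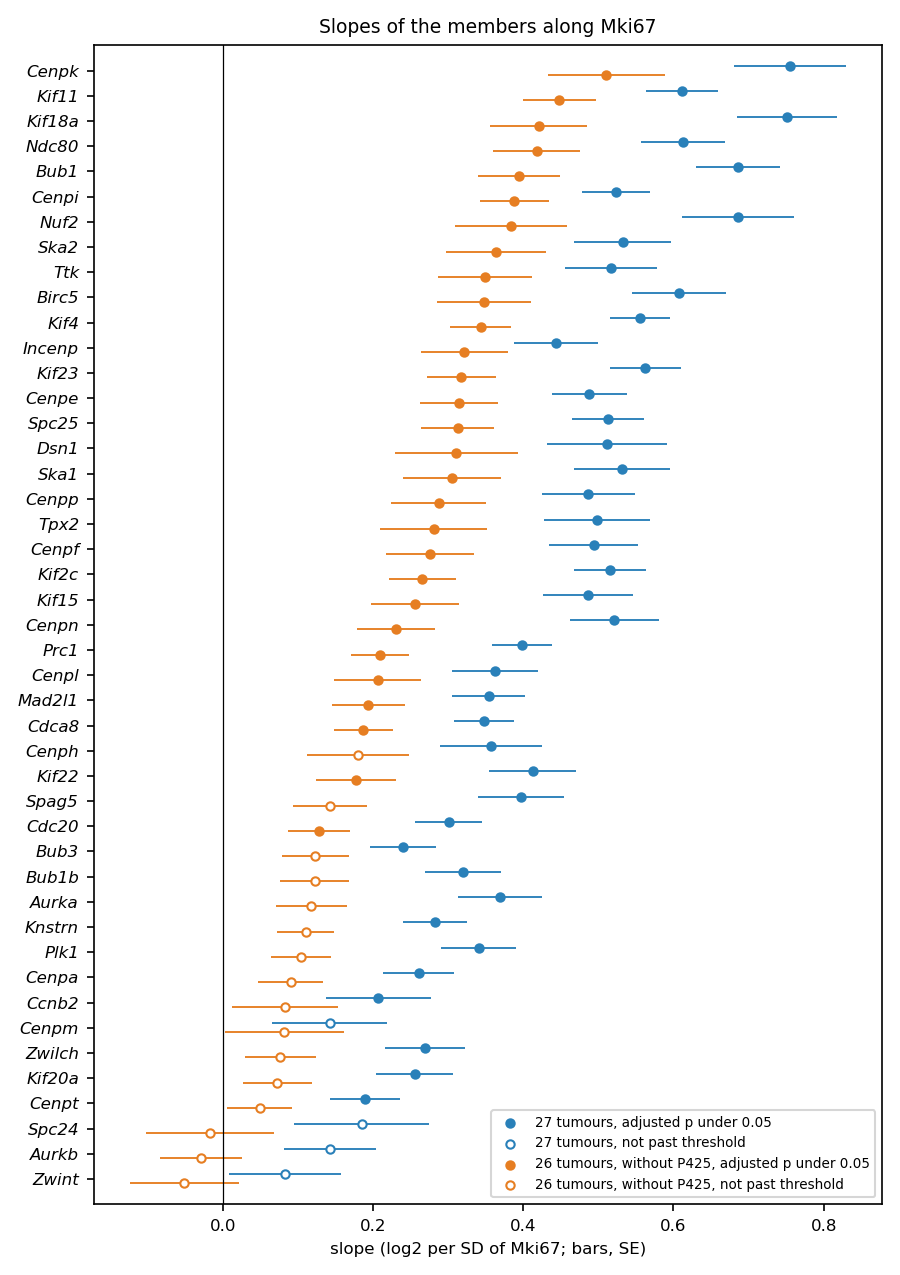
Slope of each member along Mki67 (log2 per SD of Mki67, bars are SE) over 27 tumours in blue and over the 26 without P425 in orange, filled where the limma adjusted p is under 0.05. Cenpk, Kif11, Kif18a, Ndc80 and Bub1 head the orange slopes, and Spc24, Aurkb and Zwint lie at or below 0 without P425.

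In the Ndc80 and Mis12 complexes, the microtubule-binding core, 4 of 5 members rose along Mki67 in both fits. Nuf2, an Ndc80 subunit, was at 7.45 in P425 and at 9.08 (P1276) to 11.33 (P1218) in the other 26, with a median of 10.53 over all tumours. P425 was 8.21-fold below the mean of the others, and even the others spanned 4.75-fold. Its slope was 0.69 ± 0.07 log2 per SD (SE, n = 27, limma adjusted p = 2.33e-07) and 0.38 ± 0.07 without P425 (limma adjusted p = 0.0021). Ndc80 itself, the subunit that names the complex, was at 7.81 in P425 and at 9.19 (P1276) to 10.77 (P1225) in the others, median 10.38. It rose by 0.61 ± 0.06 over 27 tumours (limma adjusted p = 1.43e-08), by 0.42 ± 0.06 over 26 (limma adjusted p = 1.15e-04) and by 0.26 ± 0.06 within the 19 tumours of lower luminal score (limma adjusted p = 0.034). Spc25 and the Mis12 complex gene Dsn1 also rose in both fits, while Dsn1 had a slope of 0.04 ± 0.05 within the 19 tumours. Over 26 tumours Dsn1 fell into separate clusters, the smaller of 6 tumours, and its slopes there pool both. Spc24, the partner of Spc25 at the inner end of the complex, did not pass. It was at 6.60 in P425 and at 7.14 (P219) to 8.67 (P503) in the others, median 8.02, and its slope was 0.19 ± 0.09 over 27 tumours and -0.02 ± 0.09 over 26 (limma adjusted p = 0.13 and 0.91). Within the 19 tumours Nuf2 (0.15 ± 0.06, limma adjusted p = 0.16) and Spc24 (-0.19 ± 0.08, limma adjusted p = 0.17) did not pass, and Ndc80 and Spc25 did.

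Both Ska complex members rose in both fits. Ska1, which carries the microtubule-binding domain, was at 5.18 in P425, under the median row, and at 6.70 (P803) to 8.12 (P233) in the others, median 7.52. Ska2 was at 7.90 in P425 and at 8.93 (P966) to 10.82 (P233) in the others, median 9.90. P233 was the highest tumour for both. Their slopes were 0.53 ± 0.06 each over 27 tumours, and 0.31 ± 0.06 for Ska1 and 0.36 ± 0.07 for Ska2 over 26 (limma adjusted p = 0.0042 and 0.0014). The other Ska2 row had a mean of 5.32, below the median row, and a correlation of 0.20 with the row used.

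Of the 9 centromere and inner kinetochore genes 8 rose over 27 tumours and 5 over 26. Cenpk, of the CENP-H/I/K/M group, varied most of all 45 members over 27 tumours (SD 0.85). It was at 5.73 in P425, under the median row, and at 7.54 (P803) to 9.47 (P1218) in the others, median 8.74. Its slope was the steepest of all members in both fits, 0.76 ± 0.08 (limma adjusted p = 5.65e-08) and 0.51 ± 0.08 (limma adjusted p = 2.71e-04). Its partner Cenpi rose by 0.52 ± 0.05 and 0.39 ± 0.05 and passed within the 19 tumours of lower luminal score too. Cenpt, which bridges centromeric DNA to Ndc80, had the smallest SD of the 45 (0.29), at 7.30 in P425 and at 7.96 (P219) to 8.79 (P569) in the others, median 8.42. It rose by 0.19 ± 0.05 over 27 tumours (limma adjusted p = 0.0039) and had a slope of 0.05 ± 0.04 over 26 (limma adjusted p = 0.45). Cenpm was at 8.18 in P425 and at 7.92 (P471) to 9.40 (P509) in the others, median 8.86, so P425 was inside the range of the rest. Its slopes of 0.14 ± 0.08 and 0.08 ± 0.08 did not pass (limma adjusted p = 0.17 and 0.50). Cenpa, the histone variant itself, and Cenph passed with P425 and not without it, while Cenpl, Cenpn and Cenpp passed in both. Cenpl (5.55) and Cenpp (5.78) were under the median row in P425 too.

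Of the corona genes, which catch microtubules and recruit the RZZ complex and dynein, 3 of 4 rose over 27 tumours and 2 of 4 over 26. Cenpf was at 7.58 in P425 and at 8.79 (P1276) to 10.47 (P1218) in the others, median 9.75, and rose by 0.49 ± 0.06 and 0.28 ± 0.06 (limma adjusted p = 9.39e-07 and 0.0044). The kinetochore kinesin gene Cenpe rose in both fits as well. Zwilch, an RZZ subunit, was at 6.97 in P425 and in a narrow band of 8.11 (P902) to 8.93 (P233) in the others, median 8.44. It rose over 27 tumours (0.27 ± 0.05) and did not pass over 26 (0.08 ± 0.05, limma adjusted p = 0.28), where P425's lone low value is absent. Zwint, which links the RZZ complex to the outer kinetochore, was at 9.54 in P425 and at 9.73 (P966) to 11.20 (P609) in the others, median 10.30. Of the tumours low in most members, P966, P1276, P569, P1469 and P219, at 9.73 to 10.28, were below its median too and P803 (10.45) was above it. Its slope was 0.08 ± 0.07 over 27 tumours and -0.05 ± 0.07 over 26 (limma adjusted p = 0.43 and 0.65).

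All 6 checkpoint genes rose over 27 tumours and 4 over 26: Bub1, Mad2l1, Ttk and Cdc20. Bub1, a kinase that marks the kinetochore for the checkpoint, was at 6.97 in P425 and at 9.18 (P1276) to 10.71 (P471) in the others, median 9.89. It was 7.92-fold lower in P425 than the mean of the rest. Its slope was 0.69 ± 0.06 over 27 tumours (limma adjusted p = 3.84e-09), 0.39 ± 0.05 over 26 (limma adjusted p = 1.15e-04) and 0.35 ± 0.06 within the 19 tumours (limma adjusted p = 0.012). Bub3, its binding partner, had the narrowest spread of the group, at 9.51 in P425 and at 10.13 (P471) to 10.97 (P1394) in the others, median 10.65. P471 was thus the highest tumour for Bub1 and, after P425, the lowest for Bub3. Bub3 rose by 0.24 ± 0.04 over 27 tumours (limma adjusted p = 2.5e-04) and had a slope of 0.12 ± 0.04 over 26 (limma adjusted p = 0.064). Bub1b, the gene of BubR1, likewise did not pass without P425 (limma adjusted p = 0.076).

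Of the chromosomal passenger genes 3 of 4 rose in both fits, and the one that did not was the kinase. Birc5, the gene of survivin, was at 6.46 in P425 and at 7.98 (P803) to 9.83 (P500) in the others, median 9.20, and rose by 0.61 ± 0.06 and 0.35 ± 0.06 (limma adjusted p = 9.06e-08 and 0.0011). Aurkb was at 9.79 in P425 and at 10.24 (P219) to 11.32 (P509) in the others, median 10.92. P966 (11.14) and P1276 (11.08), low in most members, lay in the upper part of its range. Its slope was 0.14 ± 0.06 over 27 tumours and -0.03 ± 0.05 over 26 (limma adjusted p = 0.085 and 0.74). The scaffold gene Incenp and Cdca8, the gene of borealin, passed in both fits.

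Spindle assembly and its kinases changed most in count between the fits: all 6 rose over 27 tumours and Tpx2 alone over 26. Tpx2, which activates Aurora kinase A on microtubules, was at 7.35 in P425 and at 8.48 (P569) to 10.15 (P1218) in the others, median 9.58, and rose by 0.50 ± 0.07 and 0.28 ± 0.07 (limma adjusted p = 1.18e-05 and 0.014). Knstrn, which works with astrin at spindle poles and kinetochores, had the smallest SD of the group, at 8.49 in P425 and at 9.43 (P1276) to 10.28 (P509) in the others, median 9.95. Its slope was 0.28 ± 0.04 and, without P425, 0.11 ± 0.04 (limma adjusted p = 0.057). The other Knstrn row had a mean of 5.015, below the median row, and a correlation of 0.19 with the row used. Ccnb2, cyclin B2, was at 9.60 in P425 and at 9.37 (P1394) to 11.01 (P509) in the others, median 10.77. P1394 was above the average in its member mean (0.20), so its low Ccnb2 was not shared by the rest. The Ccnb2 slope was 0.21 ± 0.07 over 27 tumours (limma adjusted p = 0.029) and 0.08 ± 0.07 over 26 (limma adjusted p = 0.44). Over 27 tumours Ccnb2 fell into separate clusters, the smaller of 3 tumours, and its slopes there pool both. Aurka, Plk1 and Spag5, the gene of astrin, had slopes of 0.12 ± 0.05, 0.10 ± 0.04 and 0.14 ± 0.05 without P425 and did not pass.

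Kinesins and the midzone kept most of their calls, 9 of 9 over 27 tumours and 8 of 9 over 26. Kif18a, which limits microtubule length at kinetochores, had the widest range of all members over 27 tumours, at 5.55 in P425, under the median row, and at 7.90 (P1276) to 9.71 (P500) in the others, median 8.91. It rose by 0.75 ± 0.07 and 0.42 ± 0.06 (limma adjusted p = 8.61e-09 and 3.09e-04). Kif11, the kinesin that pushes spindle poles apart, rose by 0.61 ± 0.05 and 0.45 ± 0.05, and with 0.38 ± 0.06 it had the steepest slope of all members within the 19 tumours of lower luminal score (limma adjusted p = 0.0080). Kif20a, which acts in cytokinesis, had the smallest SD of the group, at 8.24 in P425 and at 9.06 (P219) to 10.25 (P471) in the others, median 9.68. It rose over 27 tumours (0.26 ± 0.05) and not over 26 (0.07 ± 0.05, limma adjusted p = 0.28). Kif2c, Kif4, Kif15, Kif22, Kif23 and the midzone bundler gene Prc1 passed in both.

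**Figure D3:**
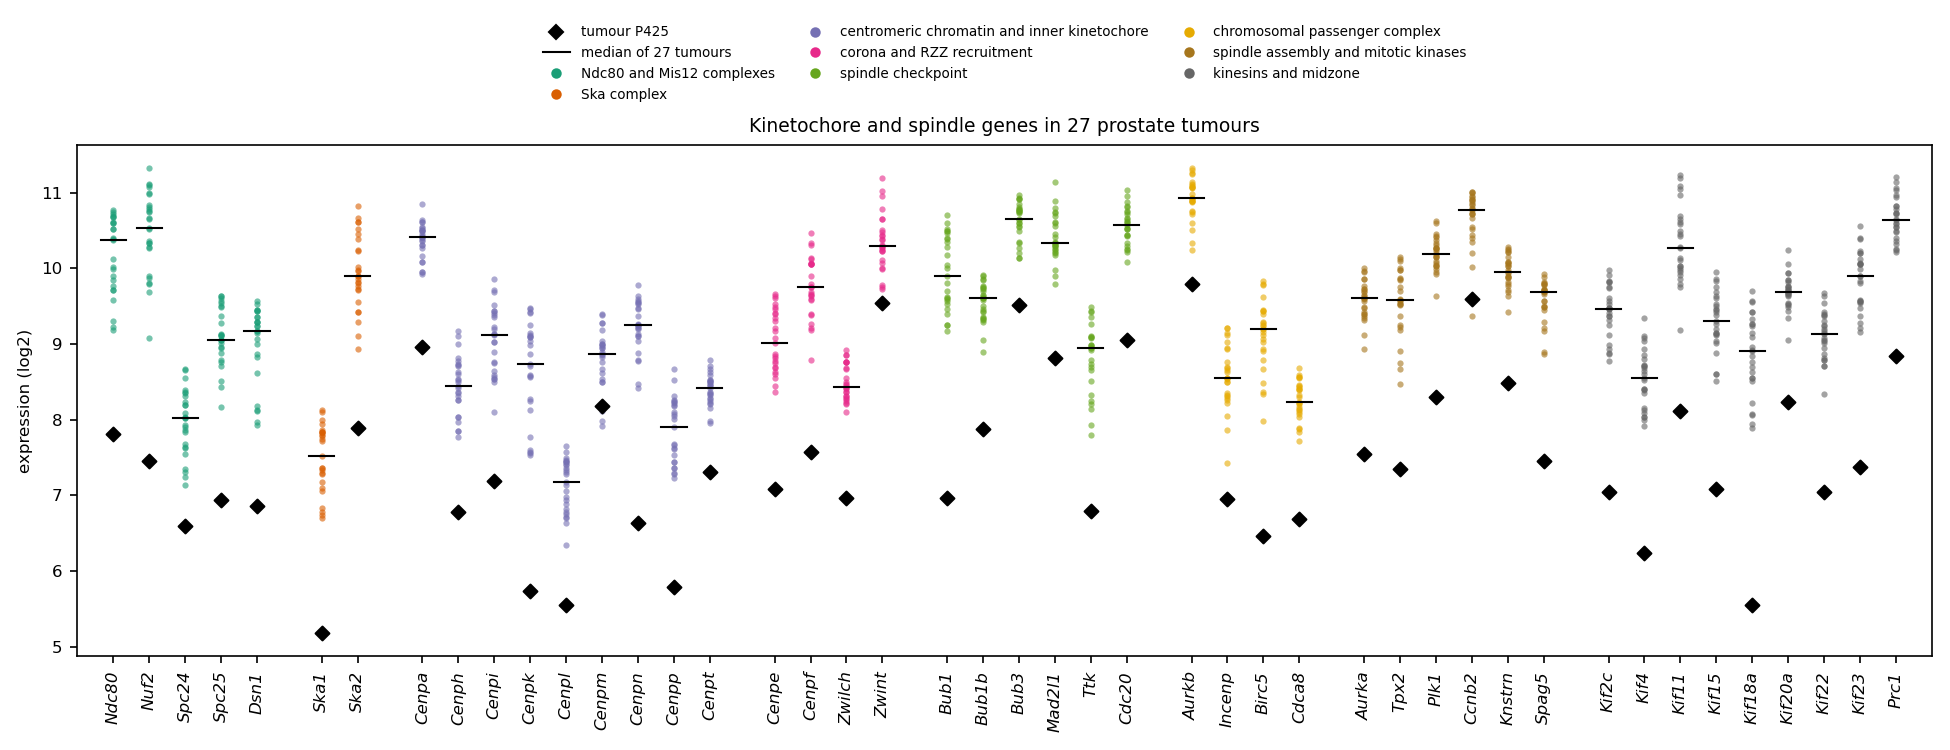
Log2 expression of the 45 members, grouped and coloured by role, with a point per tumour, a line at the median of 27 tumours and a diamond for P425. P425 lies below the other 26 tumours for every member but Cenpm and Ccnb2.

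**Figure D4:**
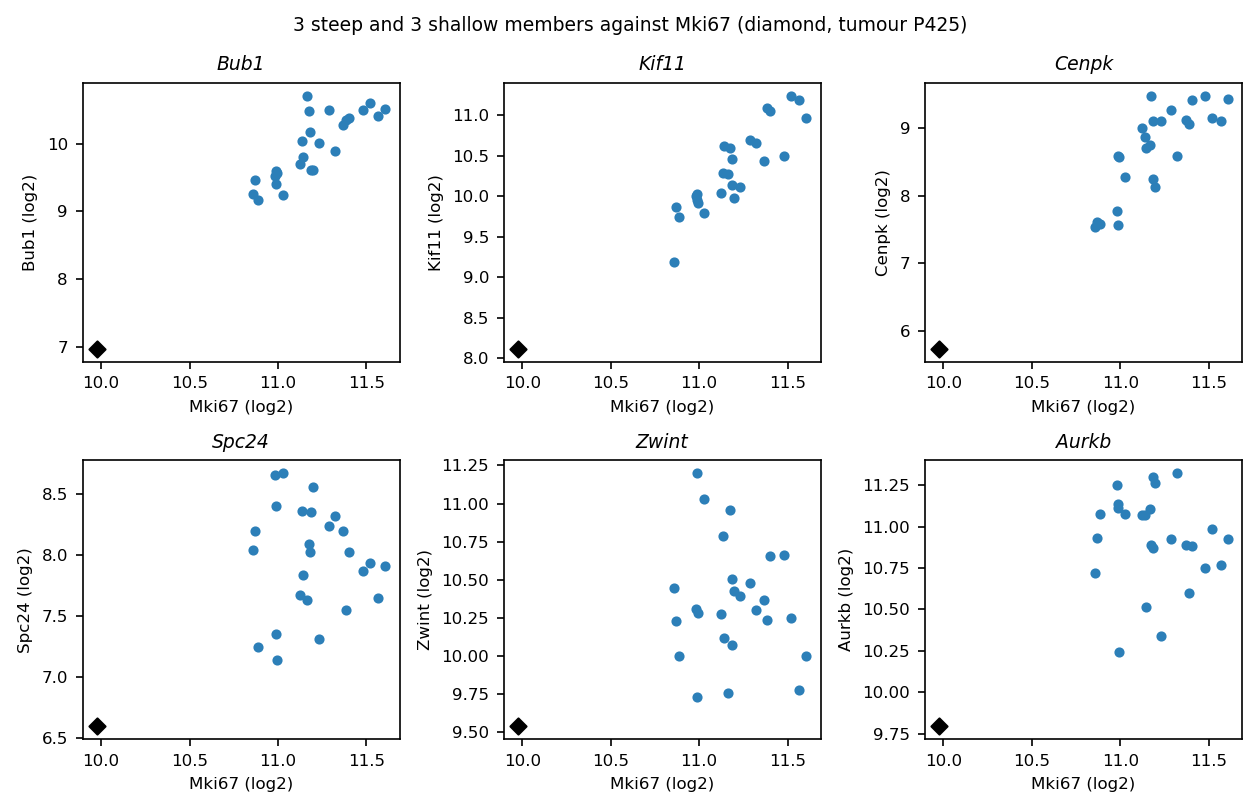
Bub1, Kif11 and Cenpk (top) and Spc24, Zwint and Aurkb (bottom) against Mki67, all in log2, with a point per tumour and a diamond for P425. The upper genes climb with Mki67 among the other 26 tumours, and the lower ones spread without order there.

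Foxm1, a transcription factor of G2 and mitotic genes, and Ska3, the remaining subunit gene of the Ska complex, gave further measures that hold no member. Foxm1 was at 7.38 in P425 and at 8.41 (P219) to 9.84 (P569) in the other 26. Along it 44 of 45 members rose over 27 tumours, against 12.6% of all genes, with Ccnb2 as the exception, and 30 over 26, against 6.12%. Without P425 all 5 Ndc80 and Mis12 members, both Ska members and 8 of 9 inner kinetochore members rose along Foxm1, and 2 of 6 spindle assembly members did. Spc24, Cenpm and Cenpt, which did not pass along Mki67 in the 26 tumours, passed along Foxm1 there, with slopes of 0.24 ± 0.07, 0.21 ± 0.07 and 0.15 ± 0.03 (limma adjusted p = 0.030, 0.041 and 0.0058). Bub1 did the opposite, with 0.21 ± 0.08 along Foxm1 (limma adjusted p = 0.10). The slopes along Mki67 and along Foxm1 were not tested against each other. Within the 19 tumours of lower luminal score no member passed along Foxm1 (limma, 7 members at an unadjusted p under 0.05), and 0 of all 22179 genes did.

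Ska3 was at 6.08 in P425 and at 7.14 (P803) to 9.28 (P1225) in the other 26. Along it 40 of 45 members rose over 27 tumours, against 11.0% of all genes, and 27 over 26, against 6.85%. Its complex partners Ska1 (0.35 ± 0.06) and Ska2 (0.32 ± 0.07) passed without P425 (limma adjusted p = 1.77e-04 and 0.0053). Cenpk (0.50 ± 0.08), Ndc80 (0.41 ± 0.06) and Bub1 (0.40 ± 0.05) had larger slopes. A slope grows with a gene's own SD, so this order is not one of closeness to Ska3. Over the 26 tumours the SD was 0.44 for Ska1, 0.50 for Ska2, 0.64 for Cenpk, 0.51 for Ndc80 and 0.48 for Bub1. Along Ska3 19 members rose within the 19 tumours of lower luminal score, against 4.05% of all genes. Spc24, Zwint, Aurkb, Cenpm and Ccnb2 did not pass along Ska3 with or without P425.

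A score over 36 DNA replication genes was the next measure, and whether it follows the share of cells in S phase was not tested. It was -0.92 in P425 and -0.29 to 0.21 in the other 26. Along it 43 of 45 members rose over 27 tumours, against 11.2% of all genes, and 19 over 26, against 2.42%. Birc5 had the steepest slope without P425 (0.38 ± 0.05, limma adjusted p = 9.74e-04), followed by Dsn1 (0.35 ± 0.08). At a given Mki67 level 12 members rose with the replication score over 27 tumours, against 1.35% of all genes, and 4 over 26, against 0.289%: Spc24 (0.34 ± 0.08), Birc5 (0.27 ± 0.05), Kif22 (0.23 ± 0.05) and Spag5 (0.20 ± 0.04), with limma adjusted p of 0.046, 0.028, 0.029 and 0.042. Spc24, which did not pass along Mki67, thus had the largest slope of the 45 in this fit. Within the 19 tumours of lower luminal score no member passed along the replication score, alone or at a given Mki67 level (limma, 7 and 9 members at an unadjusted p under 0.05), and 0 of all genes did in either fit.

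Cdkn1a, the gene of the cell-cycle inhibitor p21, was at 8.99 in P425 and at 8.67 (P1218) to 11.0 (P966) in the other 26. No member passed along it over 27 tumours (limma, 4 at an unadjusted p under 0.05), against 0.117% of all genes rising and 0.0225% falling. Without P425 1 member fell, Zwint by 0.24 ± 0.06 log2 per SD (limma adjusted p = 0.021), and none rose, against 2.01% and 3.21% of all genes.

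Products of 1 complex need not be transcribed together, so partners were set along 1 member of each complex. Along Nuf2, 15.2% of all genes rose over 27 tumours and 11.8% over 26. Ndc80 (0.62 ± 0.05 and 0.43 ± 0.05, limma adjusted p = 1.84e-09 and 4.81e-06) and Spc25 (0.53 ± 0.04 and 0.34 ± 0.04) rose in both. Spc24 rose over 27 tumours (0.24 ± 0.08, limma adjusted p = 0.027) and did not pass over 26 (0.07 ± 0.08, limma adjusted p = 0.55). Along Cenpk, where 14.8% and 11.0% of all genes rose, Cenpi and Cenph rose in both and Cenpm in neither (0.14 ± 0.08 and 0.09 ± 0.08). Along Ska1 (14.0% and 8.27%), Ska2 rose by 0.50 ± 0.07 and 0.32 ± 0.07.

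Along Bub1 (10.5% and 6.47% of all genes rising), Mad2l1 and Ttk rose in both fits, with slopes of 0.22 ± 0.04 and 0.34 ± 0.06 over 26 tumours. Bub3 and Bub1b, which bind Bub1 or its relatives directly, rose over 27 tumours and did not pass over 26 (0.09 ± 0.05 and 0.12 ± 0.05, limma adjusted p = 0.23 and 0.0995). Along Aurkb (3.22% and 3.03%), its passenger partners followed little. Cdca8 passed over 27 tumours (0.21 ± 0.07, limma adjusted p = 0.0499), Incenp and Birc5 did not (limma adjusted p = 0.065 and 0.14), and over 26 tumours the slopes were 0.03 ± 0.05, 0.10 ± 0.08 and -0.03 ± 0.09 for Cdca8, Incenp and Birc5. Along Aurka (8.73% and 0.0180%), Tpx2 rose over 27 tumours by 0.49 ± 0.07 and did not pass over 26 (0.26 ± 0.07, limma adjusted p = 0.13). Over 26 tumours 4 of 22179 genes rose along Aurka, and Tpx2 ranked 172 by t, with an r of 0.57. Along Spag5 (13.1% and 8.0%), its partner Knstrn rose by 0.32 ± 0.03 and 0.16 ± 0.03.

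Correlations between members describe the same pattern over tumours that share a platform and differ in their make-up. Over the 990 pairs the median r was 0.77 over 27 tumours and 0.51 over 26. Pairs of other genes were not computed, so these values are not shown to be particular to the members. Each r also pools both luminal clusters. Without P425 the 125 pairs within a role group had a median r of 0.54 and the 865 pairs across groups 0.50. The closest pairs over 26 tumours crossed roles: Cenpe with Bub1 (0.96), Cenpe with Kif23 (0.92) and Nuf2 with Cenpf (0.92). Below 0 were 72 of the pairs, and 27 of the 44 pairs of Aurkb, 19 of Ccnb2, 12 of Zwint and 9 of Spc24 were among them. Spc24 was closest to Bub1b (0.67) and farthest from Mad2l1 (-0.48), and Aurkb was closest to Spc24 (0.60). Cenpm, shallow along Mki67, had r of 0.71 with Bub3 and 0.69 with Cenpa. With the mean of the other members over 26 tumours r ran from -0.03 (Aurkb) and -0.01 (Ccnb2) to 0.90 (Ttk and Kif2c).

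**Figure D5:**
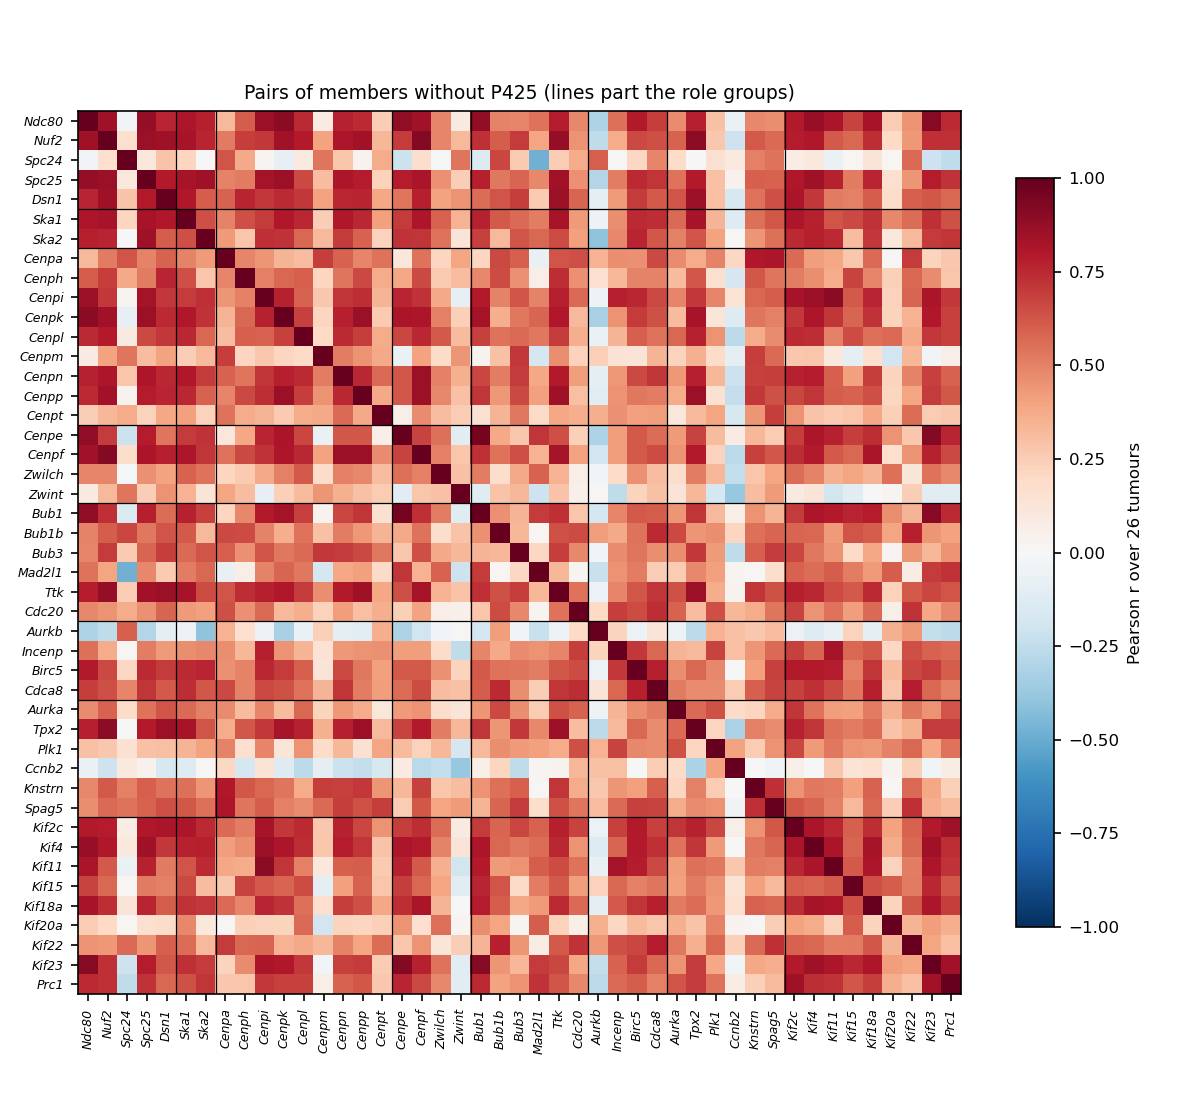
Pearson r over the 26 tumours without P425 for every pair of the 45 members, in role order with lines between the groups, from blue (-1) through white (0) to red (1). Pale and blue bands run along Spc24, Zwint, Aurkb and Ccnb2. Kif20a and Cenpm are pale too, with a median r of 0.24 and 0.26, and the remaining members are mostly red across group borders.

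Other genes of the pathway, from lists of names, moved along Mki67 in part. Of all genes 12.0% rose along it over 27 tumours and 6.24% over 26. Of 44 other mitosis genes 41 rose over 27 tumours and 31 over 26, led over 27 by Knl1, the kinetochore scaffold that docks Bub1 and Bub3 (0.71 ± 0.07), and the centromere protein gene Cenpc1 (0.66 ± 0.08), with Mad1l1 (0.01 ± 0.05) and Numa1 (-0.03 ± 0.03) last. Of 36 DNA replication genes 24 and 8 rose, and 1 fell over 26 tumours. Rrm2 (0.55 ± 0.10) and Tyms (0.43 ± 0.06) were steepest over 27 tumours and Pold1 (0.0046 ± 0.06) and Gins2 (-0.11 ± 0.05) lowest. Of 18 DREAM complex genes and mitotic transcription factors 9 and 5 rose, with E2f8 (0.47 ± 0.05) and Foxm1 (0.44 ± 0.06) first. E2f4, an E2F of the DREAM complex, fell by 0.19 in both fits (limma adjusted p = 0.017 and 0.043), and Rbl2 had a slope of -0.07 ± 0.08. Of 9 inhibitor genes Cdkn2c and Cdkn1b rose in both fits, while Btg2 (-0.23 ± 0.13) and Cdkn2b (-0.15 ± 0.09) had the lowest slopes over 27 tumours. Genes of some marker lists fell along Mki67 over 27 tumours, where 13.46% of all genes fell. They were 8 of 11 luminal epithelium genes, 5 of 9 prostate secretory, 5 of 9 smooth muscle and 4 of 5 adipose genes. The 1 of 7 basal epithelium and 1 of 7 T and NK cell genes that fell were near the share of all genes. No gene of the fibroblast, endothelium, macrophage, B and plasma cell, skeletal muscle and seminal vesicle lists fell there. Of 13 neuroendocrine genes 4 rose. Over 26 tumours, where 5.68% of all genes fell, 6 luminal, 1 basal and 2 of 8 endothelium genes fell. None of the secretory, smooth muscle and adipose lists passed there. Of the 13 neuroendocrine genes 1 rose over 26, near the share of all genes. These slopes pool both luminal clusters.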

How the data were processed

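Expression was measured in total RNA of 27 prostate tumours with biotin-labelled GeneChip arrays, 1 per tumour, per the labels. Its 41345 rows are log2 values as deposited by the authors, between 1.68 and 14.5. The submitters' processing notes name Partek and no version. How background and arrays were normalized is not stated in the labels used. Arrays have no read depth, and their number limits the precision.

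Rows were named through the platform's probe table: 23521 had 1 symbol, 1814 several and 16010 are unnamed here. A gene with several rows was represented by its brightest row on average, giving 22180 genes. The members, gene lists, tests and the rule for named genes were chosen with earlier results of these data known. Named are, per role group, the members of largest and smallest SD and of steepest and shallowest Mki67 slope, members that failed along Mki67, 2 genes at either end of each pathway list, and genes most like the member mean. Single values outside this rule, the 4 promoter windows among them, were chosen after their values were seen.

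A linear model of each gene on a predictor scaled to SD 1 was fitted in R 4.3.3 with limma 3.58.1 (lmFit, then eBayes allowing a trend). The genes of the predictor did not enter. Benjamini-Hochberg adjustment ran over the remaining genes, with a threshold of 0.05. There were 6 such fits and 7 along a member of a complex. The fits along Mki67 and the replication score were also run on simulated data with independent noise for each gene. The members here are correlated, so that run does not gauge false calls among them. Slopes carry the SE of the fit. Tumours came from different animals, and p-values measure the spread between them. A measure counted as clustered if mclust 6.1.1 preferred 2 components by a BIC gain above 6, with Ashman's D above 2 and 3 or more tumours in each. The luminal score met this, and the predictors and the member mean did not. Of the members, Ccnb2 met it over 27 tumours and Dsn1 over 26, and their slopes and correlations there pool both clusters. Alternatives were leaving out P425, each tumour or the 2 farthest tumours, quantile normalization, median centring, a filter at the median row, the mean of a gene's rows, no trend, and composition or luminal scores as covariates. Covariates or the filter combined with leaving out P425, and the fit within the lower luminal cluster, were chosen after seeing the data. The labels give no batch.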

Additional observations from a re-analysis of the deposited data

How the results depend on the processing

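No paired analysis was possible because all tumours form 1 group. Counts of members that rose stayed within 1.5 times of the reported ones under quantile normalization, median centring, the filter at the median row, the mean of a gene's rows, no trend and the luminal score as a covariate in the 6 fits. With composition scores as covariates (fibroblast, smooth muscle, macrophage and endothelium) they did so except for the replication score at a given Mki67 level, where 6 of 45 members passed. Leaving out P425 gave 19 along the replication score, 4 at a given Mki67 level and 1 along Cdkn1a (Zwint, falling). The shares of all genes there were 2.42%, 0.289% and, falling, 2.01%. Leaving out the 2 tumours farthest on the predictor gave 13 along the replication score (P425 and P803), 28 along Foxm1 (P425 and P219), 25 along Ska3 and 5 at a given Mki67 level (P425 and P803 in both). Leaving out each tumour in turn, counts ran from 29 to 41 along Mki67, 19 to 44 along the replication score, 30 to 44 along Foxm1, 27 to 40 along Ska3, 0 to 1 along Cdkn1a and 4 to 14 at a given Mki67 level, where P219 or P757 gave 6 and P502 or P503 gave 5. P425 was the tumour whose removal gave the lowest count in the first 4. The share of all genes rising also fell without P425, along the replication score from 11.2% to 2.42%. Member counts given here without a share of all genes are thus not read as a loss particular to the members. Without P425 and with the luminal score as a covariate, 17 members rose along Mki67 and Zwint fell, against 2.39% of all genes rising, and 25 rose along Ska3, against 6.15%. In that setting 0 members rose along the replication score (13 at an unadjusted p under 0.05 in limma), 0 along Foxm1 (15) and 0 at a given Mki67 level (11), where 0, 1 and 3 of all genes rose. Without P425 and with composition scores the counts were 24 along Mki67, 5 along the replication score, 4 along Foxm1, 25 along Ska3 (1 other member fell) and 1 at a given Mki67 level, against 5.03%, 1.5%, 1.15%, 6.61% and 0.172% of all genes. Within the 19 tumours of lower luminal score they were 11, 0, 0 and 19 along Mki67, the replication score, Foxm1 and Ska3, and 0 at a given Mki67 level, with fewer tumours in the fit. The counts of 0 stand beside 0 of all genes. Among genes above the median row, the shares rising over 27 tumours were 20.5% along the replication score, 22.4% along Foxm1, 19% along Ska3 and 3.07% at a given Mki67 level. Without P425 as well, 27 members rose along the replication score (5.87% of such genes), 32 along Foxm1 (11.95%), 29 along Ska3 (12.1%) and 5 at a given Mki67 level (0.872%), and 2 fell along Cdkn1a (4.92%). The partner counts along Aurkb were 0 without P425, after quantile normalization and with the mean of a gene's rows, 0 along Aurka without P425 and 2 of 4 along Bub1 without P425. Slopes along Mki67 changed sign without P425 for Spc24 (-0.017), Zwint (-0.052) and Aurkb (-0.029). They did so without P425 and P1225 too (-0.014, -0.026 and -0.032 in that order), with composition scores for Aurkb (-0.0046) and with the luminal score for Zwint (-0.095). Without P425 and with the luminal score Spc24 was at -0.16, Cenpm at -0.034, Zwint at -0.22 (limma adjusted p = 0.038) and Aurkb at -0.040, and with composition scores Spc24 was at -0.086, Zwint at -0.065 and Aurkb at -0.12. Within the 19 tumours Spc24 was at -0.19, Cenpa at -0.016, Cenph at -0.016, Cenpm at -0.029, Cenpt at -0.046, Zwint at -0.21 and Aurkb at -0.076. Over all genes the rising count along Mki67 was 2671, against 1385 without P425 and 353 within the 19 tumours, along the replication score 2490 against 535 without P425, along Foxm1 2800 against 1357, along Ska3 2444 against 1519, along Cdkn1a 26 against 711 and at a given Mki67 level 300 against 64. The causes were not tested. Values near the median row have little signal over background, which limits the folds that reach them.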

Other observations

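Outside the 45 members, the genes whose level over the 27 tumours was most like the member mean were taken by their correlation, as a description. Ckap5, the gene of a microtubule polymerase, had a Pearson r of 0.98 with the member mean over 27 tumours and 0.95 over the 26 without P425, and was at 8.49 log2 in P425, against a mean of 10.38 in the other 26. Next over 27 tumours came the condensin genes Smc2 (0.97) and Ncapg2 (0.97), then Arhgap11a, Ckap2, Kntc1, which codes for the RZZ subunit Rod, G2e3, the cyclin gene Ccna2, Wdr76 and Ect2, a regulator of cytokinesis (0.95). Over 26 tumours the cohesin gene Rad21 (0.90) and the centromere gene Cenpc1 (0.91) were among the 10 closest. At the other end were Ppara, a lipid metabolism receptor gene (-0.93 over 27 tumours and -0.78 over 26), Rnf39, the row of the microRNA gene Mir200a, Gprc5c and Cracr2b (-0.92). Ppara was at 6.45 in P425, against a mean of 4.95 in the other 26, which is below the median row. Over 26 tumours Rnf39, Mir200a and Cracr2b had an r of -0.75, -0.76 and -0.82. Lowest over 26 tumours were Trappc6a (-0.90), Gprc5c (-0.88), Cited4, Adamtsl5 and Tes (-0.86 each), so Gprc5c alone was on both lists. The mean of Adamtsl5 was below the median row. These are descriptions over tumours that differ in luminal score.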
